A study of Canis lupus familiaris with 8 samples.

Results

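The miR-15 family is a group of related microRNAs, short RNAs that bind messenger RNAs and lower their translation and stability. Its members on the array were the names miR-15a, miR-15b, miR-16, miR-195, miR-497, miR-424, miR-322 and miR-503 in the canine (cfa) or murine (mmu) listing, without the star strands. By these names 13 of the 1224 miRNA names on the array were members, 7 canine and 6 murine, and 11 of them were among the 438 names detected. The 2 listings of a miRNA were kept apart. Serum came from 4 client-owned Doberman Pinschers with dilated cardiomyopathy (DCM) and 4 healthy Doberman Pinschers, and each dog gave 1 array of 1 slide.

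The DCM dogs were in the occult stage, in which the heart is enlarged or arrhythmic while the owner sees no illness, and the healthy dogs served as the control group. All DCM dogs were given pimobendan, an ACE inhibitor and either sotalol or amiodarone, and no heart medication is stated for the control dogs, so disease and therapy cannot be told apart. The labels give an age of 7 to 11 years for all dogs, although the study describes 1 DCM dog as younger, and they give no genotype. DCM is a disease of the heart muscle that is common in this breed. Serum was taken after the blood had clotted, and blood cells are known to release RNA in clotting. In serum a larger number of releasing cells and more RNA per cell cannot be told apart.

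Members of the family share all or most of the seed, the stretch near the 5′ end that pairs with messenger RNAs. They are known to hold back the cell cycle and to lower the survival protein BCL2. miR-15a and miR-16 lie together in the genome and are abundant in blood cells, and miR-16 is among the most abundant miRNAs of red cells and serum. miR-195 and miR-497 form another pair. In the heart, miR-195 rises under stress and is known to slow the division of heart muscle cells after birth. miR-424, called miR-322 in the mouse, and miR-503 form a further pair that is known from muscle differentiation and from endothelium.

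In the canine gene table of the assembly UU_Cfam_GSD_1.0 all 7 canine names had a gene. MIR15A had MIR16-1 as its nearest miRNA gene at a distance of 82 bases, and MIR15B had MIR16-2 at 85 bases. MIR195 and MIR497 were 260 bases apart and MIR424 and MIR503 236 bases. cfa-miR-16 thus has 2 genes, and its probes cannot tell their products apart.

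The arrays carried 40 features for each name, 20 of each of 2 probe designs. Between 10817 and 14000 of the 48960 features were well above background per array, and 0 were saturated. The array labelled DoCM5 stood apart: its median correlation with the other arrays was 0.924, against 0.957 to 0.968 for the others. The study's methods left out DoCM8, and the comparison was therefore made with 3 DCM arrays (DoCM5 to DoCM7) and 4 control arrays (Con1 to Con4), with all 8 arrays and with DoCM5 left out in its place as alternatives. The study describes the array it removed as poorly correlated with the others and bright in signal. In the files used here DoCM5 had both the lowest correlation and the highest median raw signal, so the 7 arrays tested probably still hold the array that the study removed. Of the names that the study lists as different, cfa-miR-21 was called here with DoCM5 left out but not with DoCM8 left out. mmu-miR-144 and mmu-miR-142-3p were called in both sets. The values without DoCM5 are therefore given beside those of the members. DCM arrays filled the first row of the slide and control arrays the second, so row and group cannot be told apart. All levels below are glog2 values, a scale that equals log2 for bright signals and is also defined near 0. They depend on the probe, so a difference between the levels of 2 names is not a difference in abundance, and where such a difference is printed only its change between arrays or groups is read.

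Detection divided the family. miR-15a, miR-15b and miR-16 had 40 of 40 features well above background on all 8 arrays in every listing present, and so had mmu-miR-322. cfa-miR-195 had 37, 2, 16 and 8 such features in DoCM5 to DoCM8 and 30, 16, 8 and 6 in Con1 to Con4. By the rule that 50% of the kept features must be well above background, it was detected in 2 of 4 DCM and 2 of 4 control arrays. mmu-miR-195 had 33 to 40 features above background and was detected in all 8 arrays. cfa-miR-497 had 20 to 40.

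**Figure D1:**
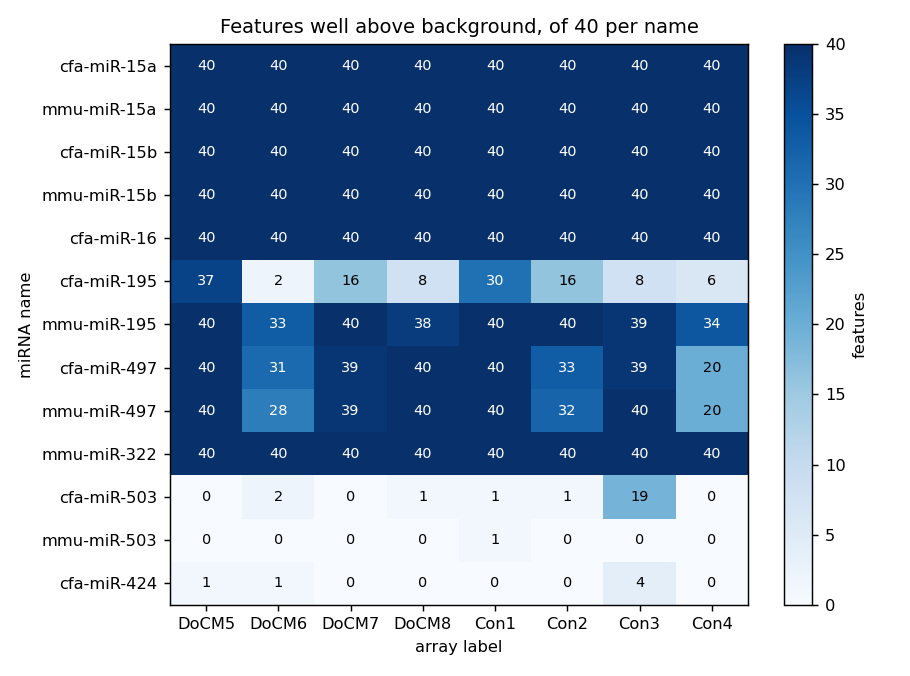
Number of features well above background, of 40 per miRNA name, for the 13 members (rows) on each of the 8 arrays (columns), with a darker blue for more features. miR-15a, miR-15b, miR-16 and mmu-miR-322 are at 40 everywhere, cfa-miR-195 ranges from 2 to 37, and miR-424 and mmu-miR-503 are at 4 or fewer.

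The undetected members were cfa-miR-424 and mmu-miR-503. cfa-miR-424 had at most 4 features above background, on Con3, and mmu-miR-503 at most 1. cfa-miR-503 passed the filter with only 2 kept features. It had 19 features above background on Con3 and 0 to 2 on the other 7 arrays, and no DCM array had it well above background, for which reason it is given no fold change. mmu-miR-322, the murine name of miR-424, was by contrast above background with both probe designs on every array. The canine and murine names of this miRNA therefore gave different detection in the same RNA.

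miR-15a and miR-15b were higher on average in DCM by slightly more than 1 SD of either group, and the difference did not pass the test. cfa-miR-15a, the partner of miR-16 in its cluster, had glog2 values of 10.61, 10.09, 9.88 and 10.48 in DoCM5 to DoCM8 and of 9.89, 9.24, 10.15 and 9.81 in Con1 to Con4. DoCM5 was the highest and Con2 the lowest, and the groups overlapped because Con3 lay above DoCM6 and DoCM7. Over the 7 arrays DCM averaged 10.19 ± 0.37 (SD, n = 3) against 9.77 ± 0.38 (SD, n = 4) for controls. The log2 fold change was 0.42 with an SE of 0.35 and a 95% interval of -0.35 to 1.19 (limma p = 0.255, adjusted p = 0.999; exact two-sided permutation p = 0.229). With all 8 arrays it was 0.49 (limma p = 0.127; exact permutation p = 0.143), and with DoCM5 left out in place of DoCM8 0.38 (exact permutation p = 0.257).

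cfa-miR-15b, encoded with the other copy of miR-16, had glog2 values of 10.96, 10.42, 10.12 and 10.65 in DoCM5 to DoCM8. In Con1 to Con4 the values were 10.17, 9.36, 10.50 and 9.92. The order of the arrays was much like that of cfa-miR-15a, with Con2 lowest and DoCM5 highest. DCM averaged 10.50 ± 0.43 (SD, n = 3) and controls 9.99 ± 0.48 (SD, n = 4), a log2 fold change of 0.51 with an SE of 0.37 and an interval of -0.31 to 1.33 (limma p = 0.197, adjusted p = 0.999; exact permutation p = 0.257). Without DoCM5 and with DoCM8 it was 0.41 (exact permutation p = 0.286). All 3 DCM arrays tested, and DoCM8 as well, lay above the control mean for both names. The upper bounds of the intervals do not exclude a change above the fold limit of 1.5 used in the methods.

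The change of cfa-miR-16 depended on the scaling. Its glog2 values were 13.67, 12.77, 12.89 and 13.23 in DoCM5 to DoCM8, and 13.20, 12.60, 13.19 and 13.36 in Con1 to Con4. DoCM6 and DoCM7 lay below 3 of the 4 controls, while DoCM5 was the highest array. DCM averaged 13.11 ± 0.49 (SD, n = 3) and controls 13.09 ± 0.34 (SD, n = 4). The fold change was 1.02 with a 95% interval of 0.591 to 1.75 (limma p = 0.946; exact permutation p = 0.914). Its log2 fold change was 0.025, turned to -0.12 with DoCM5 left out in place of DoCM8, and was 0.39 with scaling to the 75th percentile of all names and 0.56 with quantile normalization, where cfa-miR-15b had 0.55 and cfa-miR-15a 0.21. None of these values passed the limits.

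cfa-miR-195, the member known from the stressed heart, was dim and variable in both groups. Its glog2 values were 3.21, 1.59, 3.29 and 2.44 in DoCM5 to DoCM8 and 3.27, 3.27, 1.84 and 2.42 in Con1 to Con4. Each group held both high and low arrays. DCM averaged 2.70 ± 0.96 (SD, n = 3) and controls 2.70 ± 0.70 (SD, n = 4), and the fold change was 0.999 with a 95% interval of 0.464 to 2.15 (limma p = 0.997; exact permutation p = 1). With DoCM5 left out in place of DoCM8 the log2 fold change was -0.26 (exact permutation p = 0.657). The main interval leaves room for both a doubling and a halving that this number of arrays could not detect.

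**Figure D2:**
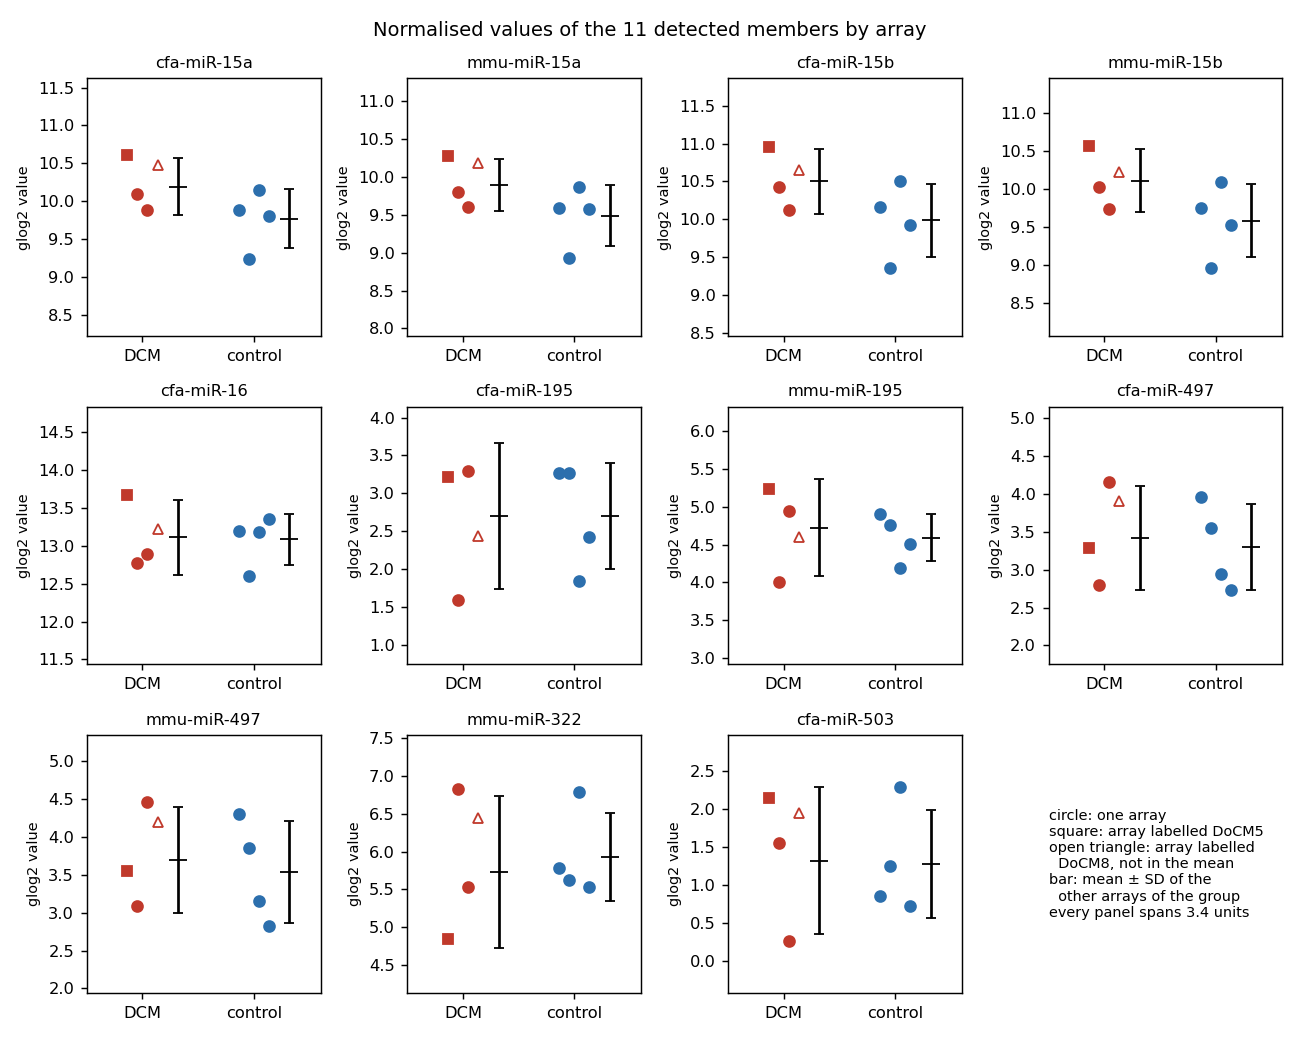
Normalised glog2 values of the 11 detected members, with 1 panel per name and 1 point per array, DCM in red and control in blue. The array DoCM5 is a square, DoCM8 an open triangle, and the black bars give the mean ± SD without DoCM8. The groups overlap in every panel, and both miR-15a and miR-15b panels show a higher DCM mean.

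The murine listing of miR-195, with more features above background, did not differ between the groups beyond the spread of the dogs either. mmu-miR-195 had glog2 values of 5.23, 4.01, 4.94 and 4.61 in DoCM5 to DoCM8 and of 4.90, 4.76, 4.19 and 4.51 in Con1 to Con4. DoCM5 was the highest array and DoCM6 the lowest, so the DCM group spanned the whole control range. Its log2 fold change was 0.13 with an interval of -0.69 to 0.96 (limma p = 0.728; exact permutation p = 0.743), and it turned to -0.073 when DoCM5 was left out in place of DoCM8.

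miR-497, the neighbour of miR-195, also spread within both groups. cfa-miR-497 had glog2 values of 3.29, 2.80, 4.16 and 3.91 in DoCM5 to DoCM8 and of 3.96, 3.56, 2.94 and 2.74 in Con1 to Con4. Its log2 fold change was 0.12 with an interval of -0.82 to 1.06 (limma p = 0.786; exact permutation p = 0.857). For mmu-miR-497 the log2 fold change was 0.16 (limma p = 0.723; exact permutation p = 0.771), and its values had the same order of arrays as the canine listing. With DoCM5 left out in place of DoCM8 the log2 fold changes were 0.33 for cfa-miR-497 and 0.38 for mmu-miR-497 (exact permutation p = 0.543 for both).

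mmu-miR-322 was the member with the widest range among those on all 40 features. The glog2 values were 4.84, 6.82, 5.53 and 6.44 in DoCM5 to DoCM8 and 5.78, 5.63, 6.79 and 5.53 in Con1 to Con4. DoCM6, Con3 and DoCM8 were the high arrays, from both groups, and DoCM5, the highest array for miR-15a, miR-15b and miR-16, was the lowest. The log2 fold change was -0.20 with an interval of -1.27 to 0.87 (limma p = 0.692; exact permutation p = 0.857) and was 0.33 with DoCM5 left out in place of DoCM8.

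Across the family, 0 of the 11 detected members passed the limits of the methods, an unadjusted p under 0.05 and a fold change over 1.5. Over all detected names limma called 11 of 438, or 2.51%, and 0 after adjustment. With all 8 arrays and with DoCM5 left out in place of DoCM8 it also called 0 members, where 4.11% and 5.94% of all names were called. At an unadjusted p under 0.05 limma, an ordinary linear model and the exact permutation test each found 0 members, and the smallest limma p was 0.183. The exact test could reach a p of 0.0286 with 3 and 4 arrays. Leaving out cfa-miR-503, the fitted change was above 0 for 8 of 10 members, against 50.5% of all names, and the median was 0.15 against 0.0031 over all names. These 8 include both listings of miR-15a, miR-15b and miR-497, so they are not 8 separate miRNAs. With DoCM5 left out in place of DoCM8 it was 7 of 10, against 50.2% of all names, and the median was 0.35 against 0.0034. With all 8 arrays it was 8 of 10, with a median of 0.27 against -0.00021. The groups overlapped for 11 of 11 members in all 3 sets of arrays, while 4.34% of all names had groups that did not overlap with 7 arrays, 2.74% with 8 arrays and 7.76% without DoCM5. The arrays come from separate dogs, so these p-values measure the spread between dogs.

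**Figure D3:**
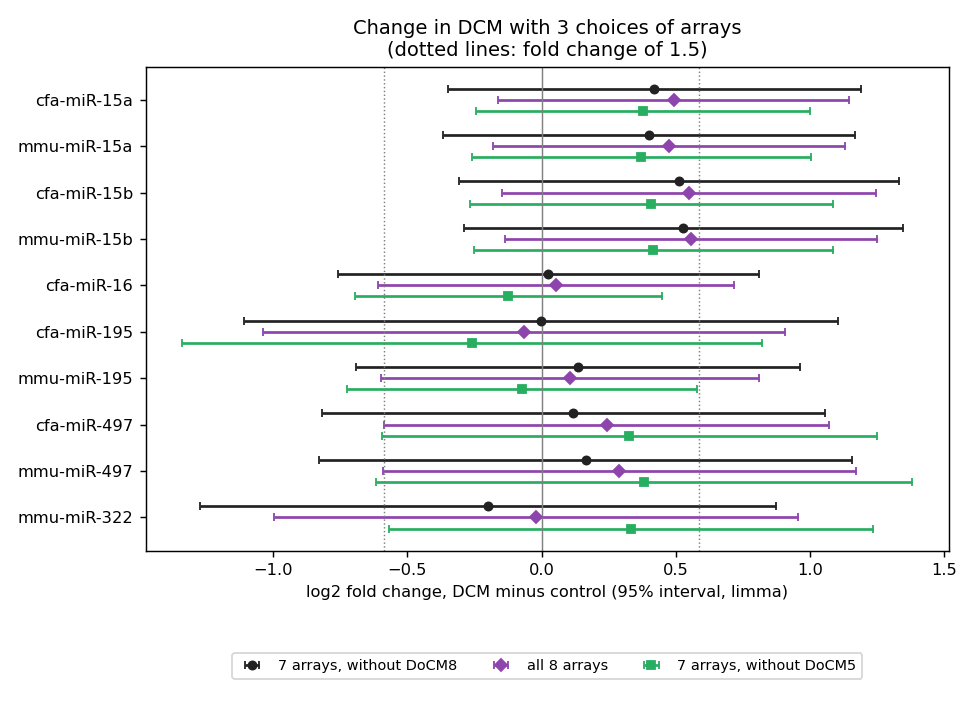
Log2 fold change of DCM against control with its 95% limma interval for the 10 members with a fold change, for 7 arrays without DoCM8 (black circles), all 8 arrays (purple diamonds) and 7 arrays without DoCM5 (green squares). Dotted lines mark a fold change of 1.5. Every interval crosses 0, and miR-15a and miR-15b lie between 0.37 and 0.56 in all 3 sets.

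The 4 columns of the slide each held 1 DCM and 1 control array. Within them cfa-miR-15a differed by 0.72, 0.85, -0.27 and 0.67 (DCM minus control, glog2) and cfa-miR-15b by 0.79, 1.06, -0.38 and 0.73. Both names were thus higher in DCM in 3 of 4 columns. cfa-miR-16 differed by 0.47, 0.17, -0.30 and -0.13 and cfa-miR-195 by -0.060, -1.68, 1.46 and 0.017. With the column as a block over all 8 arrays the limma p was 0.161 for cfa-miR-15a and 0.139 for cfa-miR-15b.

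The comparison of the blood-rich member with the cardiac stress member asked whether miR-16 and miR-195 changed unequally within the arrays. The difference of the glog2 values of cfa-miR-16 and cfa-miR-195 averaged 10.41 ± 0.79 (SD, n = 3) for DCM against 10.39 ± 0.92 (SD, n = 4) for controls. These differed by 0.026 (exact permutation p = 1), by 0.12 with all 8 arrays (exact permutation p = 0.886) and by 0.13 without DoCM5 (exact permutation p = 0.886). Over 24 alternatives the contrast ran from -0.36 to 0.55 (lowest exact permutation p 0.314). cfa-miR-195 was well above background in only 2 of 4 arrays of each group, which limits this contrast. With mmu-miR-195, detected in all 8 arrays and taken in its place after the values had been seen, the groups differed by -0.11 (exact permutation p = 0.83), with an SD of 0.41 in DCM and 0.53 in the control group. No unequal change was detectable with this number of arrays.

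A tighter contrast was found between the partners of the miR-15/16 clusters, and it was chosen after the values had been seen. The difference cfa-miR-15a minus cfa-miR-16 was -3.07, -2.68, -3.01 and -2.75 in DoCM5 to DoCM8 and -3.31, -3.36, -3.04 and -3.55 in Con1 to Con4. The lowest DCM array, DoCM5, lay just below Con3, the highest control, so the groups overlapped by that array alone. The means were -2.92 ± 0.21 (SD, n = 3) and -3.32 ± 0.21 (SD, n = 4), which differ by 0.40 (exact permutation p = 0.0857, 0.229 adjusted over the 4 pairs compared). For cfa-miR-15b minus cfa-miR-16 the difference was 0.49 (exact permutation p = 0.114, adjusted 0.229). With all 8 arrays the differences were 0.44 (exact permutation p = 0.0571, adjusted 0.171) and 0.50 (exact permutation p = 0.0857, adjusted 0.171). With DoCM5 left out in place of DoCM8 they were 0.50 (exact permutation p = 0.0571, adjusted 0.171) and 0.53 (exact permutation p = 0.0857, adjusted 0.171). The groups then did not overlap for cfa-miR-15a minus cfa-miR-16, where DoCM7 at -3.01 lay just above Con3 at -3.04. In this set 7.76% of all single names had groups that did not overlap, and the share among pairs of names was not computed. Neither pair passed a p of 0.05, and with quantile normalization both turned to below 0, at -0.34 for miR-15a and -0.0075 for miR-15b.

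**Figure D4:**
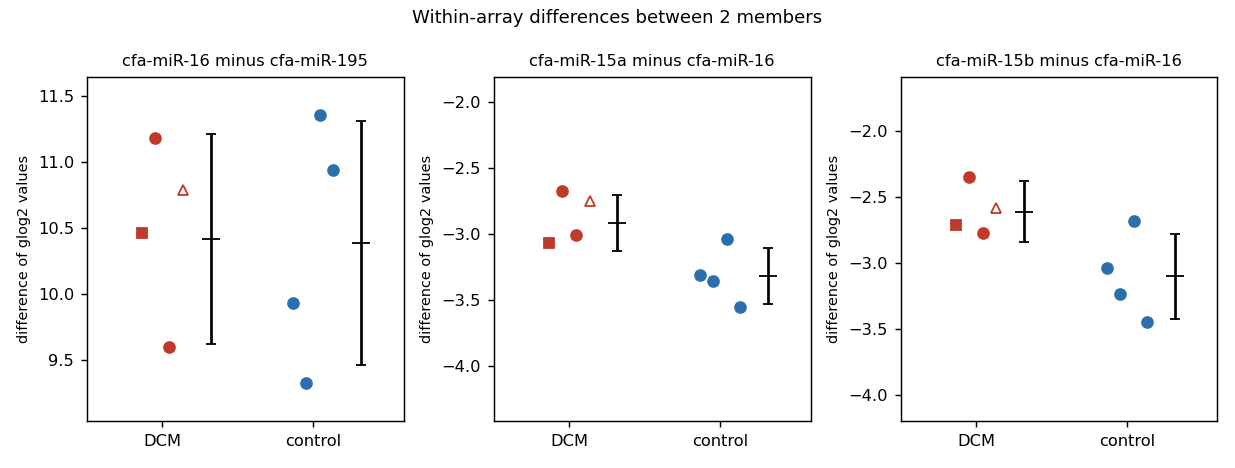
Difference of the glog2 values of 2 members within each array, for 3 pairs, with DCM in red and control in blue (square DoCM5, open triangle DoCM8, bars mean ± SD without DoCM8). The distance between the groups is read, not the height on the axis, which depends on the probes. It is 0.026 for the left pair, 0.40 for the middle pair and 0.49 for the right pair.

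Canine and murine listings of a miRNA were read on the same arrays, and whether their probes bind the same RNA was not tested. With the main scaling the step between them varied less over the arrays than the canine level did. The canine minus murine glog2 difference of miR-15a ran from 0.23 to 0.33 over the 8 arrays, and that of miR-15b from 0.38 to 0.42. The step for miR-497 was -0.34 to -0.082. For miR-195 it was wider, -2.42 to -1.49, with an SD of 0.35 over arrays where the canine listing itself varied by 0.69. Canine and murine log2 fold changes stood side by side at 0.42 and 0.40 for miR-15a, 0.51 and 0.53 for miR-15b, 0.12 and 0.16 for miR-497, and -0.0017 and 0.13 for miR-195.

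Within a name, the 2 probe designs gave like changes for the bright members. The log2 fold changes of the designs were 0.42 and 0.42 for cfa-miR-15a, 0.59 and 0.47 for cfa-miR-15b, and 0.060 and 0.076 for cfa-miR-16. For cfa-miR-195 1 of the 21 kept features belonged to the first design and 20 to the second, so its value rests almost wholly on 1 design.

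The correlation of neighbouring members was computed over the arrays. Over the 8 arrays, both groups pooled, cfa-miR-15a and cfa-miR-16 correlated with r = 0.72 (permutation p = 0.0427, adjusted 0.0684 over 8 pairs) and rho = 0.52 (permutation p = 0.197). Without Con2 and DoCM5, the arrays farthest from the median of cfa-miR-15a, r fell to 0.022. Leaving out the extremes narrows the range and tends to lower r by itself, so this value cannot tell whether the relation holds among the other arrays. cfa-miR-15b and cfa-miR-16 behaved alike, with r = 0.68 (permutation p = 0.0634, adjusted 0.0724), rho = 0.52 (permutation p = 0.197) and r = -0.18 without Con2 and DoCM5. cfa-miR-195 and cfa-miR-497 had r = 0.70 (permutation p = 0.0593, adjusted 0.0724) and rho = 0.86 (permutation p = 0.0107, adjusted 0.0171), with r = 0.45 without Con3 and DoCM6. mmu-miR-322 and cfa-miR-503 had r = 0.34 (permutation p = 0.393) and rho = 0.36 (permutation p = 0.389), and r = -0.022 without Con3 and DoCM6. cfa-miR-503 rested on 2 kept features and was not well above background in any DCM array, so no relation is read from this pair. These values depended on the scaling and the filter. Over 4 other settings r ran from 0.68 to 0.91 for cfa-miR-15a and cfa-miR-16, from 0.73 to 0.90 for cfa-miR-15b and cfa-miR-16, from 0.68 to 0.74 for cfa-miR-195 and cfa-miR-497, and from 0.54 to 0.83 for mmu-miR-322 and cfa-miR-503.

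The 2 listings correlated with r = 0.998 for miR-15a, 0.996 for miR-497 and 0.93 for miR-195 (permutation p adjusted over the 8 pairs 0.000198, 0.000198 and 0.00184). For miR-195 r was 0.77 without Con3 and DoCM6. With quantile normalization r was 0.81 for the listings of miR-15a and 0.77 for those of miR-15b. The pairs were chosen after the values had been seen, and each pair shares the array, its labelling and its scaling.

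**Figure D5:**
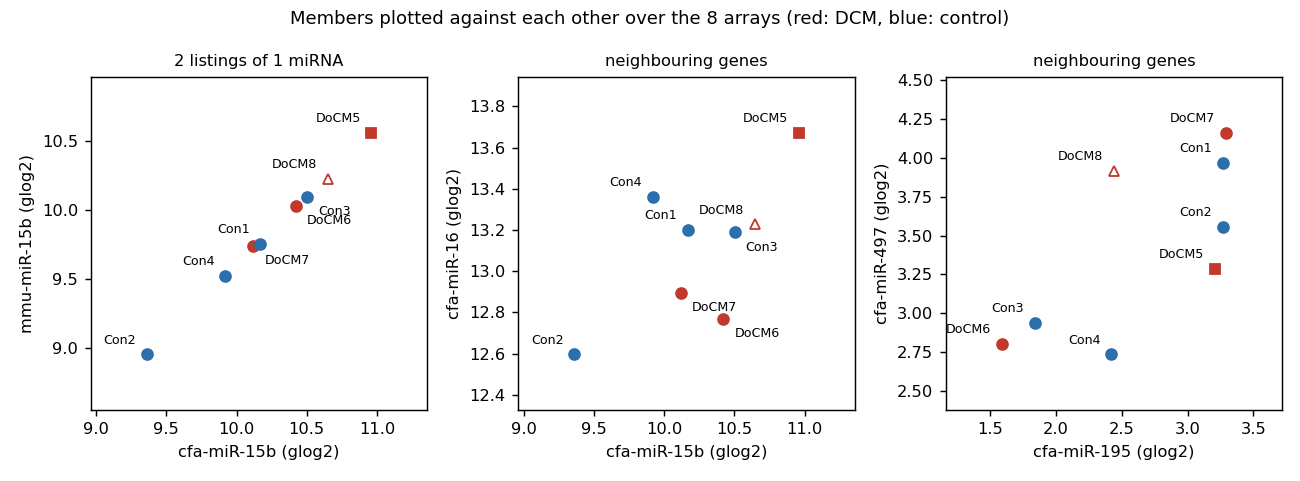
Members plotted against each other over the 8 arrays in glog2 units, DCM in red and control in blue (square DoCM5, open triangle DoCM8). The listings of miR-15b lie on a line, miR-15b and miR-16 are both lowest on Con2 and highest on DoCM5, and miR-195 and miR-497 rise together with r = 0.70.

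The names most like cfa-miR-16 over the 8 arrays, by Pearson correlation among 437 other names, were cfa-miR-18a with r = 0.957, cfa-miR-18b with 0.956 and cfa-miR-20b with 0.929. cfa-miR-18a, cfa-miR-18b and cfa-miR-20b belong to a family of clusters known for promoting cell growth. Its cluster partner cfa-miR-15a came at rank 87, and cfa-miR-195 at rank 190 with r = 0.079. With its murine listing left out of the ranking (r = 0.93), as the rule asks for other listings of the same miRNA, the nearest to cfa-miR-195 were cfa-miR-30a with r = 0.972, mmu-miR-199b* with 0.944 and cfa-miR-125b with 0.898, of which the first rested on 6 kept features and the second on 3. cfa-miR-497 came at rank 18 of the 436 names ranked. These correlations describe 8 arrays and share their scaling.

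Other strands and relatives of the family were counted from fixed lists. Of the 8 star strands on the array 3 passed the filter, and 0 were called. mmu-miR-15b* had a log2 fold change of 0.49 with an SE of 0.45 and mmu-miR-16-2* of 0.33 with an SE of 0.46. These values depended on DoCM5. With DoCM5 left out in place of DoCM8 the median of the 3 star strands was 0.051, against 0.33 in the main set. mmu-miR-322* had at most 1 of 40 features above background, on Con1 and Con4 and on no DCM array. Its fitted value was below 0 (-0.78), and no fold change is read from it. miR-103 and miR-107, whose seed is offset from that of the family, gave 3 detected names, 0 of them called, with log2 fold changes of 0.21 to 0.28. With DoCM5 left out in place of DoCM8, 2 of these 3 names were above 0 and their median fell from 0.23 to 0.0998. Of the other cardiac stress miRNAs 10 of 11 names were detected and 0 were called with 7 arrays, with a median of -0.039 and 3 of 10 above 0. On all 8 arrays 1 of them, cfa-miR-21, which is known from fibrosis, was called higher, as were 1.83% of all names.

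Markers of cell types that may release RNA into serum were read beside the members. The erythrocyte list, of miR-144, miR-185 and miR-451, had 4 of 4 names detected, each with all 40 features above background on every array. Its summed level ran from 85755 to 137574 in DCM, or from 125320 without DoCM5, and from 102106 to 129018 in the control group, and 98.8% to 99.7% of it came from cfa-miR-451, so that it says little of the other names. 1 of its 4 names, mmu-miR-144, which is made in red cell precursors, was called higher with a log2 fold change of 0.81, as were 1.37% of all names, and 3 of the 4 were above 0, with a median of 0.43. On the log2 scale the fitted difference of cfa-miR-144 was 0.60, called with all 8 arrays but not with 7, that of cfa-miR-185 was 0.27 and that of cfa-miR-451 -0.016. The leukocyte list had 9 of 10 names detected, summed levels of 6076 to 11385 in DCM and 8254 to 10973 in the control group, and 1 name called higher, mmu-miR-142-3p, with a log2 fold change of 1.23. Of the 9 names 6 were above 0, with a median log2 fold change of 0.13, and the lowest were cfa-miR-223 at -0.35 and mmu-miR-223 at -0.43. With DoCM5 left out in place of DoCM8 mmu-miR-144, mmu-miR-142-3p and cfa-miR-21 were the names called in these lists, each of them higher. In that set 9 of all 438 names were called higher and 17 lower, together 5.94%. There 4 of 4 erythrocyte names were above 0. The part of blood cell RNA in the miR-15a and miR-15b values was not tested.

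The platelet and endothelium list had 5 of 5 names detected and 0 called, with sums of 460 to 1374 in DCM, or 460 to 701 without DoCM5, and 602 to 692 in the control group. The liver list had 3 of 3 detected and 0 called, with 374 to 524 and 377 to 724. Of the heart and muscle list 5 of 8 names were detected and 0 called, with summed levels of 109 to 177 in DCM and 55.9 to 429 in the control group. Of its miRNAs known from heart muscle, cfa-miR-208a and cfa-miR-208b had at most 1 of 40 features above background on any array, and cfa-miR-133a at most 9. cfa-miR-1 had 3 to 40 such features and cfa-miR-133c 21 to 40. cfa-miR-133b and cfa-miR-499 had 40 of 40 on every array. The 5 detected names had log2 fold changes of -0.41 (cfa-miR-133b) to 0.61 (cfa-miR-499), with a median of 0.034 and 3 of 5 above 0. With DoCM5 left out in place of DoCM8 the median turned to -0.15, with 2 of 5 above 0.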

How the data were processed

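Total RNA of 8 serum samples was labelled with Cy3 and hybridised to custom Agilent miRNA arrays with canine and murine probes. For each array the authors deposited scanner text from Agilent Feature Extraction 10.7.3.1 (version per the submitters' processing notes), in which the processed signal is a background-subtracted intensity per feature, not normalised between arrays. The deposited value table holds the same intensity values. Groups were taken from the labels.

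Control features and features flagged as outliers were left out. The filter asked for a signal flagged well above background on 2 or more of a group's arrays, with all 8 arrays considered, and left 13423 features of 438 names. The mean signal per name was calibrated with the vsn model used in the methods, in an own implementation (an arsinh transform fitted by least trimmed squares, quantile 0.9, in 5 slices and 7 iterations), checked on simulated data. Differences were tested with limma 3.58.1 (R 4.3.3) at p < 0.05 and a fold change over 1.5, with Benjamini-Hochberg adjustment over all names, beside exact two-sided permutation tests. Plots used matplotlib 3.10.9 with numpy 2.4.6 and pandas 2.3.3.

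The members and lists were chosen with earlier results of these data known. All members were named by the family rule. For cfa-miR-16 and cfa-miR-195 the 3 names with the highest correlation were named as well. The contrasts of miR-15a and miR-15b with miR-16, the 8 correlations, the miR-497 listings, the contrast with mmu-miR-195, the count without cfa-miR-503 and the alternatives with the scanner software's total signal, with outlier features kept and with equal weight of designs were added after the data were seen. The planned normexp correction used the median signal. Gene names came from a table of another assembly than the array design, so coordinates are not given and sequences are not shown here. The small number of arrays limits the precision. List sums add the calibrated signal of the detected names of a list.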

Additional observations from a re-analysis of the deposited data

Results flagged for a closer look

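Of 36 groups of 4 arrays tested for an array far from the others of its group, 0 were past the limit, where chance would give about 1.8.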

How the results depend on the processing

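Over 26 alternatives 0 members were called in any. cfa-miR-15a stayed above 0 in each (0.20 to 0.79, lowest limma p 0.0934), and so did cfa-miR-15b (0.28 to 0.88, lowest limma p 0.0836) and both murine listings. The log2 fold changes near 0 changed sign in some. With DoCM5 left out in place of DoCM8, cfa-miR-16 was at -0.12, mmu-miR-195 at -0.073 and mmu-miR-322 at 0.33. With array weights over 8 arrays they were at -0.039, -0.00077 and 0.25. With the median over features cfa-miR-16 was at -0.20, mmu-miR-195 at -0.060, the change of cfa-miR-16 minus that of cfa-miR-195 at -0.19, and mmu-miR-322 moved from -0.20 to -0.89. With the murine listing of miR-195 that contrast was at -0.11, while it rose from 0.026 to 0.35 with either 75th percentile and to 0.36 without the filter, 0.41 with quantile normalization, 0.47 with the total signal and 0.55 with normexp before quantile normalization. For names with at least 50% of features kept the fit of the vsn model reduced to a plain log2 scaling, and the contrast was at 0.35 there too. Scaled to the 75th percentile of all names, cfa-miR-195 was at 0.044 and mmu-miR-322 at 0.11, and scaled to that of the detected names cfa-miR-497 was at -0.14 and mmu-miR-497 at -0.051. These scalings moved the median of all names to 0.11 and -0.25. With quantile normalization cfa-miR-16 was at 0.56, cfa-miR-195 at 0.15, and the changes of cfa-miR-15a and cfa-miR-15b relative to cfa-miR-16 were at -0.34 and -0.0075. With normexp before it cfa-miR-16 was at 0.56, cfa-miR-195 at 0.0090, and these changes were at -0.36 and -0.032. The filter over 7 arrays put cfa-miR-195 at 0.0092 and outlier features kept at 0.022. The cause was not tested.

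Leaving out each array in turn gave ranges of 0.21 to 0.58 for cfa-miR-15a, 0.28 to 0.70 for cfa-miR-15b, -0.26 (without DoCM5) to 0.20 for cfa-miR-16, -0.30 (without DoCM7) to 0.55 (without DoCM6) for cfa-miR-195, and -0.25 (without DoCM7) to 0.43 for cfa-miR-497. The ranges were 0.21 to 0.55 for mmu-miR-15a, 0.30 to 0.71 for mmu-miR-15b, -0.12 to 0.49 for mmu-miR-195, -0.74 to 0.25 for mmu-miR-322 and -0.22 to 0.47 for mmu-miR-497. They were -0.36 to 0.43 for cfa-miR-16 minus cfa-miR-195, 0.28 to 0.49 for cfa-miR-15a minus cfa-miR-16 and 0.36 to 0.63 for cfa-miR-15b minus cfa-miR-16. Over all names the number called was 11 with 7 arrays, 18 with all 8 and with the slide column as a block, 26 without DoCM5, 23 at the 75th percentile of detected names (2 higher and 21 lower, against 6 and 5), 2 with normexp and quantile normalization, 41 of 1224 names without the filter and 34 with array weights. It ran from 9 to 31 when 1 array was left out.

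No paired analysis was possible because the arrays come from separate dogs and no matching of DCM to control dogs is given. The slide column was used as a block instead. DCM arrays are numbered 5 to 8 and control arrays 1 to 4. Dim members (cfa-miR-195, cfa-miR-503) were limited by signal over background.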
